A study of Mus musculus with 16 samples.

Results

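Branched-chain amino acid catabolism was followed through 10 genes in the hearts of circadian mutant and wild-type mice: Bcat2, Bckdha, Bckdhb, Dbt, Ppm1k, Ivd, Mccc1, Pccb, Mmut and Hibadh. The genes were taken by name, and each was read by the 1 probe set that carries its symbol alone. They are 10 of the 22180 genes measured. The myocardium of 16 mice on the C57Bl/6J background was measured on 1 Affymetrix array per mouse, with 4 mice in each of 4 groups. Clock mice (genotype transgenic Clock delta 19/delta 19, both copies of Clock being the mutant allele) were fed a high-fat diet (HFD) or standard chow (SC), and wild-type (WT) mice were fed HFD or SC. Every mouse was 32 weeks old, had been on its diet for 24 weeks and was taken 7 hours after lights on. CLOCK and BMAL1 pair to form the activator at the heart of the circadian clock, and the delta 19 protein is a weak activator. The labels restrict the allele to no tissue and give 1 time of day, so a change in level and a shift in timing cannot be told apart.

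Leucine, isoleucine and valine first lose their amino group to the mitochondrial aminotransferase encoded by Bcat2. The branched-chain ketoacid dehydrogenase complex then decarboxylates the ketoacids, the irreversible step of the pathway, and its products enter separate routes for each amino acid. The heart oxidises these ketoacids actively, and the pathway is known for its reduced activity in failing hearts. Bckdha and Bckdhb encode the alpha and beta subunits of the decarboxylase in the complex and Dbt its transacylase core, while Ppm1k encodes the mitochondrial phosphatase that switches the complex on. Ivd and Mccc1 encode leucine enzymes, isovaleryl-CoA dehydrogenase and the alpha subunit of methylcrotonyl-CoA carboxylase. Hibadh encodes the hydroxyisobutyrate dehydrogenase of valine breakdown. Pccb, the beta subunit of propionyl-CoA carboxylase, and Mmut, the cobalamin-dependent methylmalonyl-CoA mutase, carry the propionyl-CoA from isoleucine and valine to succinyl-CoA and the citric acid cycle.

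Promoter windows in RefSeq (GRCm38.p6) were matched for 8 of the 10 genes, all but Dbt and Mmut, in 10 windows. The windows of Bckdha, Bckdhb and Ivd are shown as examples of genes whose transcripts moved together between mice of the same group (r 0.625 to 0.84). Pccb, not shown, moved with them about as closely (r 0.70 to 0.82). Each run is 200 bases, 5′ to 3′ on the gene's own strand, and covers the bases from 250 to 51 before the annotated start. Bckdha lies at chr7:25658812-25659011 on the minus strand, Bckdhb at chr9:83924887-83925086 on the plus strand and Ivd at chr2:118861744-118861943 on the plus strand. Capitals mark AGGTCA, a nuclear receptor site, and CCAAT, each read on both strands.
Bckdha: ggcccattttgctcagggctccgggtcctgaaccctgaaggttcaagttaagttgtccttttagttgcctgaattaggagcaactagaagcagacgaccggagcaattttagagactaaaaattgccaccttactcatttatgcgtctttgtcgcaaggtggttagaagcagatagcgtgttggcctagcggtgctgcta
Bckdhb: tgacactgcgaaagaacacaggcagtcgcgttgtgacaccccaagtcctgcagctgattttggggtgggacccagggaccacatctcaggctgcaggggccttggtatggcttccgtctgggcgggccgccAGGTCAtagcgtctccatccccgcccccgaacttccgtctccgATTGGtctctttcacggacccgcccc
Ivd: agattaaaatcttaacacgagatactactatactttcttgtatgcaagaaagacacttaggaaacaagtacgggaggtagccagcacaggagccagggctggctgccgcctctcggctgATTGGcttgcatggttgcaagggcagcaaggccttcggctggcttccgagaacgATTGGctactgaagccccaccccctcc

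The E-box letters CACGTG, bound by CLOCK and BMAL1, were in 0 of the 10 windows, against 4.34% of all 32851 windows of the same length. The related letters CACGTT were in the window of Bcat2 alone, against 3.09% of all windows. AGGTCA was found for Bckdhb and Ppm1k (2 of 10 windows, against 11.4% of all), and CCAAT for Bckdhb, Hibadh, Ivd and Ppm1k (4 of 10 windows, against 28.4% of all). Both strands were searched for every motif, and CACGTG and CACGTT share their first 5 letters. The Bckdha window held none of the letters searched, and its GC content was 48%, against 63% for Bckdhb and 53% for Ivd. A match is a description of these letters, and no match says only that they are not in this window.

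All values below are log2 differences from the median of 16 arrays for the same probe set, so that hearts can be compared for 1 gene but no gene's level can be set against another's. Neither the log base nor the sign is stated by the labels or the table. Base 2 was assumed, with a positive value meaning more transcript. Group differences come from 1 limma fit over all 22180 genes, with the standard error (SE) after ±, 4 mice per group, and a call at an adjusted p under 0.05. Array medians lay between -0.00154 and 0.00281 and array standard deviations between 0.111 and 0.159. Dbp, a target of CLOCK, was used to check the genotype labels. It lay between -0.62 and -0.37 in the 8 Clock hearts and between 0.37 and 2.45 in the 8 WT hearts, without overlap. The lowest WT heart for Dbp was WT SC replicate 4 at 0.37, well below the other WT hearts, which lay between 1.71 and 2.45. WT SC replicates 2 and 4 stood apart for several of the 10 genes, and the values they move most are given with and without them. In bulk tissue, fewer cells of a type and less RNA per cell cannot be told apart. With centred values the labelled tissue cannot be checked by the level of its markers.

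**Figure D1:**
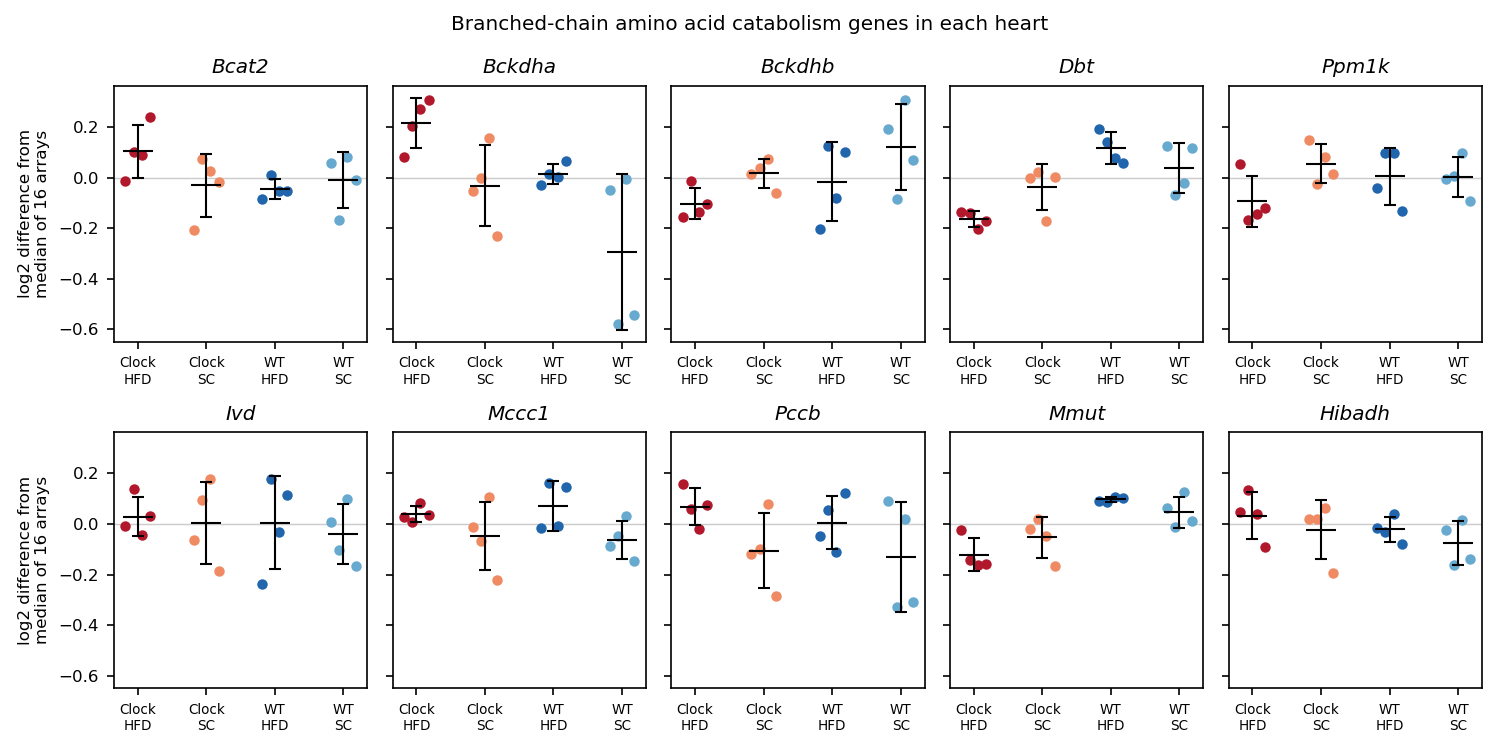
Each panel shows 1 gene, with 1 point per heart (log2 difference from the median of 16 arrays), the group mean as a bar and the SD as whiskers (n = 4 per group). Dbt and Mmut lie lower in Clock HFD than in WT HFD hearts without overlap, and Bckdha has 2 WT SC hearts far below the rest, at -0.58 and -0.54.

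On HFD, Dbt and Mmut were lower in Clock than in WT hearts, Bckdha lay higher without passing the test, and the other 7 genes did not pass it. Dbt, the core of the dehydrogenase complex, had log2 values of -0.14, -0.14, -0.21 and -0.17 in Clock HFD hearts, against 0.19, 0.14, 0.08 and 0.06 in WT HFD hearts. All 4 Clock values lay below all 4 WT values. Dbt fell by 0.28 ± 0.06 (SE) on the log2 scale, or 1.21-fold (95% interval -0.40 to -0.16, limma adjusted p = 0.0127). The call was kept under all 25 other settings run, with adjusted p between 0.00807 and 0.0464.

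Mmut, the last enzyme before succinyl-CoA, had log2 values of -0.03, -0.14, -0.16 and -0.16 in Clock HFD hearts, against 0.09, 0.09, 0.11 and 0.10 in WT HFD hearts. The groups did not overlap, and the WT HFD hearts were within a narrow range. Mmut fell by 0.22 ± 0.05 (SE) on the log2 scale, or 1.16-fold (95% interval -0.32 to -0.12, limma adjusted p = 0.0246). With 1 of these 8 arrays left out, the call was kept without Clock HFD replicate 1 and lost without any of Clock HFD replicates 2, 3 and 4 and WT HFD replicates 1, 2, 3 and 4. The difference without each of those 7 arrays was between -0.22 and -0.21, with adjusted p between 0.0549 and 0.0807.

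Both calls were among 422 genes that differed between Clock and WT hearts on HFD, 1.9% of those tested, and 171 genes (0.771%) were lower. The 2 of 10 genes lower in Clock hearts thus stand against 0.771% of all genes. The 10 genes were chosen with these calls known, so the 2 counts are a description. The median difference over the 10 genes was -0.0046, against 3e-04 over all genes, with 5 genes above 0 and 5 below.

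Bckdha, the decarboxylase alpha subunit, had log2 values of 0.08, 0.20, 0.27 and 0.31 in Clock HFD hearts, against -0.03, 0.01, 0.0014 and 0.07 in WT HFD hearts. All 4 Clock values lay above all 4 WT values, opposite to its partner Dbt. The difference of 0.20 ± 0.12 (SE) did not pass (95% interval -0.04 to 0.45, limma adjusted p = 0.484), in a fit whose spread for Bckdha includes the WT SC group. Without WT SC replicates 2 and 4 the SE was 0.07 (adjusted p = 0.178). With Clock SC replicate 4 left out too it was 0.06 (adjusted p = 0.0893). Over the 25 other settings adjusted p lay between 0.0893 and 0.673, and 0 passed. Ranges of Clock HFD and WT HFD hearts did not overlap for 3 of the 10 genes (Dbt, Mmut and Bckdha), against 8.89% of all genes.

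Bckdhb, the beta subunit that pairs with Bckdha, did not follow it. Its log2 values were -0.16, -0.02, -0.13 and -0.10 in Clock HFD hearts, against -0.20, 0.12, -0.08 and 0.10 in WT HFD hearts, and the ranges overlapped. Its difference was -0.09 ± 0.08 (SE; 95% interval -0.26 to 0.08, limma adjusted p = 0.719). Upstream of the complex, Bcat2 had log2 values of -0.01, 0.10, 0.09 and 0.24 in Clock HFD hearts, against -0.08, 0.0082, -0.05 and -0.05 in WT HFD hearts. The Bcat2 ranges overlapped through Clock HFD replicate 1, and the difference of 0.15 ± 0.07 (SE) had an unadjusted p of 0.0442 and did not pass (limma adjusted p = 0.353).

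The phosphatase gene Ppm1k had log2 values of 0.05, -0.17, -0.14 and -0.12 in Clock HFD hearts, against -0.04, 0.10, 0.10 and -0.13 in WT HFD hearts. Clock HFD replicate 1 lay above the other 3 Clock HFD hearts and WT HFD replicate 4 lay with them, so the ranges overlapped. The Ppm1k difference was -0.10 ± 0.06 (SE; 95% interval -0.24 to 0.04, limma adjusted p = 0.557). The leucine genes differed by 0.02 ± 0.09 for Ivd (95% interval -0.17 to 0.22) and -0.03 ± 0.06 for Mccc1 (95% interval -0.17 to 0.10). Pccb differed by 0.06 ± 0.09 (95% interval -0.14 to 0.26) and Hibadh by 0.05 ± 0.06 (95% interval -0.08 to 0.19). For these 4 genes the ranges overlapped and adjusted p lay between 0.794 and 0.957, and the intervals do not exclude differences up to their bounds.

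Of the markers of cell types, 1 of 6 endothelial genes passed between the same groups and 5 of 6 had an unadjusted p under 0.05, while 0 cardiomyocyte, fibroblast, leukocyte, adipocyte or smooth muscle genes passed in the limma fit. Of all 22180 genes, 422 passed between these groups in that fit and 2989 had an unadjusted p under 0.05. Unadjusted p was under 0.05 for 1 of 6 fibroblast and 2 of 6 leukocyte genes and for 0 of the adipocyte and smooth muscle genes. The mean over the 6 endothelial marker genes (Pecam1, Cdh5, Tek, Kdr, Emcn and Cldn5, all measured) was -0.06 to 0.15 in Clock HFD hearts, against -0.34 to -0.19 in WT HFD hearts. The gene that passed was Cldn5, an endothelial tight junction gene (1.21 ± 0.17, adjusted p = 0.00089). Cldn5 had by far the largest difference of the 6 and so weighs most in that mean, and the mean without it was not taken. The median difference over the 6 genes was 0.21, and the lowest was -0.0097 for Emcn. The cardiomyocyte mean over 8 genes was 0 to 0.07 in Clock HFD hearts, against -0.04 to 0.0050 in WT HFD hearts, with 0 of 8 passing and 1 of 8 at an unadjusted p under 0.05. The part of these markers in the Dbt and Mmut differences was not tested, and no marker can be called absent from centred values.

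On SC, none of the 10 genes passed the test between Clock and WT hearts, and 1 (Bckdha) had an unadjusted p under 0.05 in the limma fit. In all, 109 of 22180 genes passed, 0.491%, and 2167 had an unadjusted p under 0.05 in the same fit. Ranges did not overlap for 0 of the 10 genes, against 4.95% of all genes. The median difference over the 10 genes was 0.02, against -3e-04 over all genes.

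Dbt had log2 values of -0.0021, 0.02, -0.17 and 0.0021 in Clock SC hearts, against 0.13, -0.07, -0.02 and 0.12 in WT SC hearts, a difference of -0.08 ± 0.06 (SE; 95% interval -0.19 to 0.04, limma adjusted p = 0.738). Clock SC replicate 3 was the lowest heart and the others overlapped with the WT SC hearts. Mmut had log2 values of -0.02, 0.02, -0.05 and -0.17 in Clock SC hearts, against 0.06, -0.01, 0.13 and 0.01 in WT SC hearts, a difference of -0.10 ± 0.05 (SE; 95% interval -0.20 to 0.0018, limma adjusted p = 0.521). For Mmut, 3 of 4 Clock SC hearts lay below every WT SC heart.

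Bckdha had log2 values of -0.05, -0.0014, 0.16 and -0.23 in Clock SC hearts, against -0.05, -0.58, -0.0071 and -0.54 in WT SC hearts. The WT SC group fell into a pair near the Clock SC hearts and a pair far below them. Its difference of 0.26 ± 0.12 (SE, limma adjusted p = 0.461) was -0.0040 ± 0.09 (adjusted p = 0.997) with WT SC replicates 2 and 4 left out. Without only replicate 2 or only replicate 4 it was 0.17 or 0.18.

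The SC differences of the other 7 genes were between -0.10 ± 0.08 (SE) for Bckdhb and 0.05 ± 0.06 for Hibadh, which was level with Ppm1k (0.05 ± 0.06). Bcat2 differed by -0.02 ± 0.07, Mccc1 by 0.01 ± 0.06, Pccb by 0.03 ± 0.09 and Ivd by 0.05 ± 0.09. With WT SC replicates 2 and 4 left out, Bckdhb differed by -0.23, Pccb by -0.16, Bcat2 by -0.10, Ivd by -0.05, Mccc1 by -0.02 and Hibadh by -0.02, none past the threshold. Pccb, Ivd, Mccc1 and Hibadh thus changed sign without that pair. With Clock SC replicate 4 left out too, Pccb stayed below 0 at -0.10, while Ivd, Mccc1 and Hibadh were above 0 again, each between 0.02 and 0.04.

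**Figure D2:**
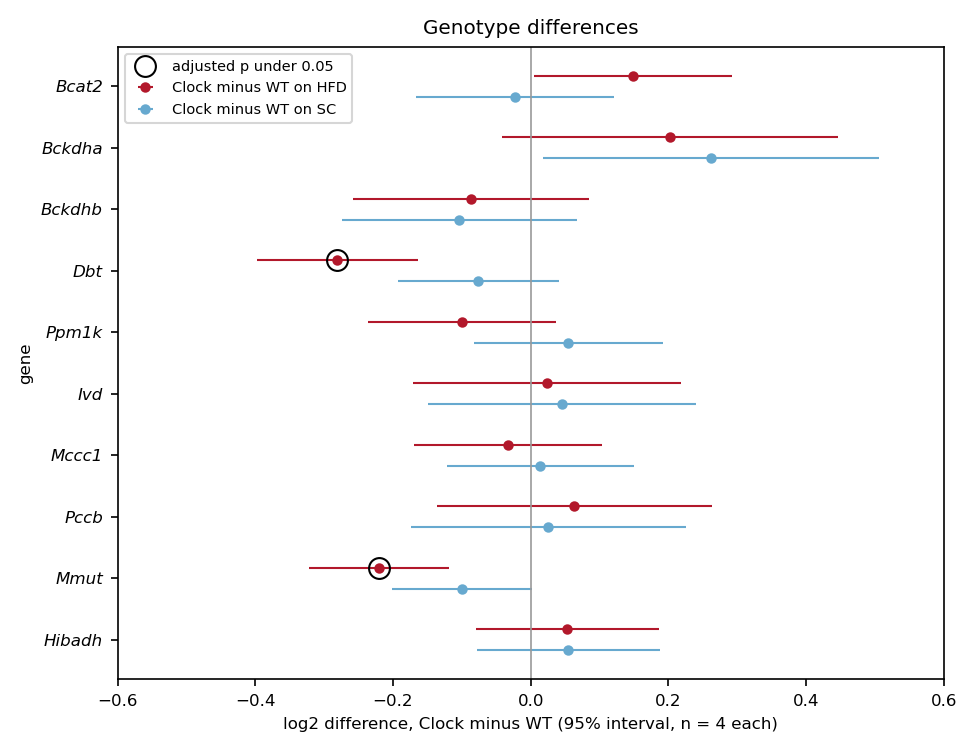
Points show the log2 difference of Clock minus WT hearts on HFD (red) and on SC (blue) for each gene, with the 95% interval of the limma fit (n = 4 per group). The 2 circled points, Dbt (-0.28) and Mmut (-0.22) on HFD, passed an adjusted p under 0.05.

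With the genotype differences averaged over both diets, Dbt and Mmut were again lower in Clock hearts and no gene of the 10 was called higher. The average difference was -0.18 ± 0.04 (SE) for Dbt (limma adjusted p = 0.0152) and -0.16 ± 0.03 for Mmut (limma adjusted p = 0.0123). Both calls held under all 24 other settings run, with adjusted p up to 0.035 for Dbt and up to 0.0294 for Mmut. These averages use the HFD hearts above, so they are not a separate observation. In this comparison 861 genes passed (3.88%), 320 of them lower in Clock hearts (1.44%) and 541 higher (2.44%).

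Bckdha averaged 0.23 ± 0.08 (SE) higher in Clock hearts, with an unadjusted p of 0.0113 that did not pass (limma adjusted p = 0.138), and 0.10 ± 0.06 with WT SC replicates 2 and 4 left out. Bckdhb averaged -0.10 ± 0.06 (adjusted p = 0.447), and the other 6 genes lay between -0.02 for Ppm1k and 0.06 for Bcat2. Without WT SC replicates 2 and 4, Bckdhb averaged -0.16 (adjusted p = 0.173), Pccb -0.05 and Bcat2 0.02. The median over the 10 genes was 0.0127, against -0.0014 over all genes.

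Within the complex, the difference between Dbt and Bckdha was also taken in each heart, a description chosen after the values were seen and given no test. It was -0.22, -0.34, -0.48 and -0.48 in Clock HFD hearts, 0.05, 0.02, -0.33 and 0.23 in Clock SC hearts, 0.22, 0.13, 0.07 and -0.01 in WT HFD hearts, and 0.18, 0.51, -0.01 and 0.66 in WT SC hearts. Every Clock HFD heart lay below every WT heart, and 1 Clock SC heart (replicate 3) lay among the Clock HFD hearts.

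Diet changed none of the 10 genes at an adjusted p under 0.05, within either genotype or on average. In Clock hearts, 20 of 22180 genes passed between HFD and SC (0.0902%), and 1867 had an unadjusted p under 0.05 in the limma fit. Of the 10 genes, 3 had an unadjusted p under 0.05 in the limma fit: Bckdha at 0.25 ± 0.12 (SE, adjusted p = 0.582), Ppm1k at -0.15 ± 0.06 (adjusted p = 0.536) and Dbt at -0.13 ± 0.06 (adjusted p = 0.544). Their ranges overlapped, as did those of all 10 genes, against 5.31% of all genes without overlap. Of the 4 Clock HFD hearts, 3 lay below every Clock SC heart for Ppm1k and 1, at 0.05, lay among the Clock SC values of 0.15, -0.03, 0.08 and 0.02.

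Bcat2, with the Clock HFD values above set against -0.21, 0.07, 0.03 and -0.02 in Clock SC hearts, differed by 0.13 ± 0.07 (SE, limma adjusted p = 0.632) between HFD and SC. Pccb differed by 0.17 ± 0.09 and Bckdhb by -0.12 ± 0.08 in the same hearts. The remaining 4 genes lay between -0.07 for Mmut and 0.09 for Mccc1.

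In WT hearts, 78 of 22180 genes passed between HFD and SC (0.352%) and none of the 10 did. Of all genes, 2363 had an unadjusted p under 0.05 in the limma fit. Bckdha differed by 0.31 ± 0.12 (SE, unadjusted p = 0.0162, limma adjusted p = 0.305), and by 0.04 ± 0.09 (adjusted p = 0.944) with WT SC replicates 2 and 4 left out. It was the 1 gene of the 10 with an unadjusted p under 0.05. Mccc1 differed by 0.13 ± 0.06 (limma adjusted p = 0.477), with values of -0.02, 0.16, -0.0074 and 0.15 in WT HFD hearts, against -0.09, -0.05, 0.03 and -0.15 in WT SC hearts. Dbt and Mmut differed by 0.08 ± 0.06 and 0.05 ± 0.05. Bckdhb differed by -0.14 ± 0.08, and by -0.27 ± 0.08 (adjusted p = 0.283) without WT SC replicates 2 and 4. Without the same pair Bcat2 differed by -0.12 (-0.04 with it) and Mccc1 by 0.10. Pccb went from 0.14 to -0.05, Ivd from 0.05 to -0.05 and Hibadh from 0.06 to -0.02, each a change of sign. Ranges did not overlap for 0 of the 10 genes, against 5.3% of all genes.

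Averaged over genotypes, 341 of 22180 genes passed between HFD and SC (1.54%), and 180 of them were higher (0.812%). None of the 10 passed in the limma fit, and 4 had an unadjusted p under 0.05, against 2930 of all genes. Bckdha was 0.28 ± 0.08 (SE) higher on HFD (adjusted p = 0.105), and 0.33 ± 0.08 with an adjusted p of 0.0437 when WT SC replicate 3 was left out. With WT SC replicates 2 and 4 left out instead it was 0.15 ± 0.06 (adjusted p = 0.317). Pccb differed by 0.15 ± 0.07, Mccc1 by 0.11 ± 0.05 and Bckdhb by -0.13 ± 0.06, with adjusted p of 0.317, 0.289 and 0.34. Without WT SC replicates 2 and 4, Pccb differed by 0.06, Mccc1 by 0.09 and Bckdhb by -0.19, with adjusted p of 0.798, 0.565 and 0.137. The median over the 10 genes was 0.0418, against -0.0015 over all genes.

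**Figure D3:**
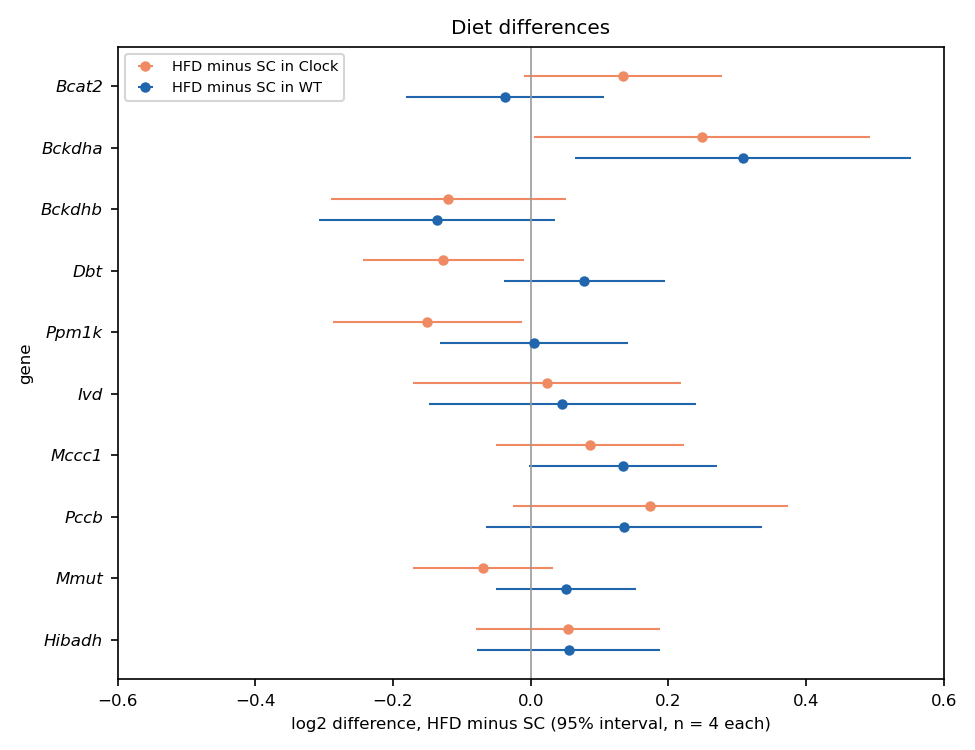
Points show the log2 difference of HFD minus SC hearts in Clock mice (orange) and in WT mice (dark blue) for each gene, with the 95% interval of the limma fit (n = 4 per group). No point passed an adjusted p under 0.05, and Bckdha lies highest in both genotypes, at 0.25 in Clock and 0.31 in WT hearts.

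The interaction asks whether the genotype difference depended on diet. None of 22180 genes passed in the limma fit (0%), and 1122 had an unadjusted p under 0.05, 1 of them among the 10 genes. For Dbt the genotype difference on HFD minus that on SC was -0.20 ± 0.08 (SE; 95% interval -0.37 to -0.04, unadjusted p = 0.0185, limma adjusted p = 0.933). For Mmut it was -0.12 ± 0.07 (95% interval -0.26 to 0.02), for Ppm1k -0.15 ± 0.09 and for Bcat2 0.17 ± 0.10. Without WT SC replicates 2 and 4 it was -0.19 for Dbt and 0.25 for Bcat2. The same exclusion took it from -0.06 ± 0.16 to 0.21 for Bckdha, a change of sign, and from 0.04 to 0.22 for Pccb. None of these passed the threshold. The calls of Dbt and Mmut on HFD and not on SC are thus not shown to differ between the diets.

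Most pairs of the 10 genes correlated positively between hearts of the same group. After each group's mean was subtracted, 16 of the 45 pairs of genes correlated at r over 0.5 across the 16 arrays (35.6%, against 4.76% of all pairs of the 22180 genes). A further 8 pairs were below 0 (17.8%, against 49.8% of all pairs), and the median r was 0.42. The highest r were 0.84 for Bckdhb with Ivd and 0.82 for Bckdha with Pccb. Dbt stood apart, with a median r of -0.10 with the other genes and its lowest at -0.62 with Mccc1. Dbt and Mmut correlated at 0.73 over the 16 arrays as they stood and at 0.05 within groups. These correlations are descriptions over 16 arrays that share each array's own RNA and processing.

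The first component of the within-group deviations of 22180 genes held 15.7% of their variance, and 8 of the 10 genes correlated with it at r over 0.5, against 12.1% of all genes. Its sign was set to follow the mean of the 10 genes, and those genes are among the 22180 it was drawn from. A further 6.99% of all genes correlated with it at r below -0.5. The highest r were those of Pccb (0.86), Bckdha (0.83) and Bckdhb (0.76). For Dbt r was 0.04 and for Ppm1k 0.06. The component was lowest in Clock SC replicate 4 (-0.53) and WT SC replicate 2 (-0.52), while WT SC replicate 4 lay at -0.09, above WT HFD replicate 3 (-0.18). The mean of the 10 genes was lowest in Clock SC replicate 4 (-0.14) and in WT SC replicates 2 and 4 (-0.16 and -0.12). In the other 13 hearts it was -0.04 to 0.08. The same 3 arrays had the lowest array weights of the 16, at 0.656 for Clock SC replicate 4 and 0.86 and 0.748 for WT SC replicates 2 and 4, against 0.882 to 1.415 for the rest. RNA quality was not tested.

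**Figure D4:**
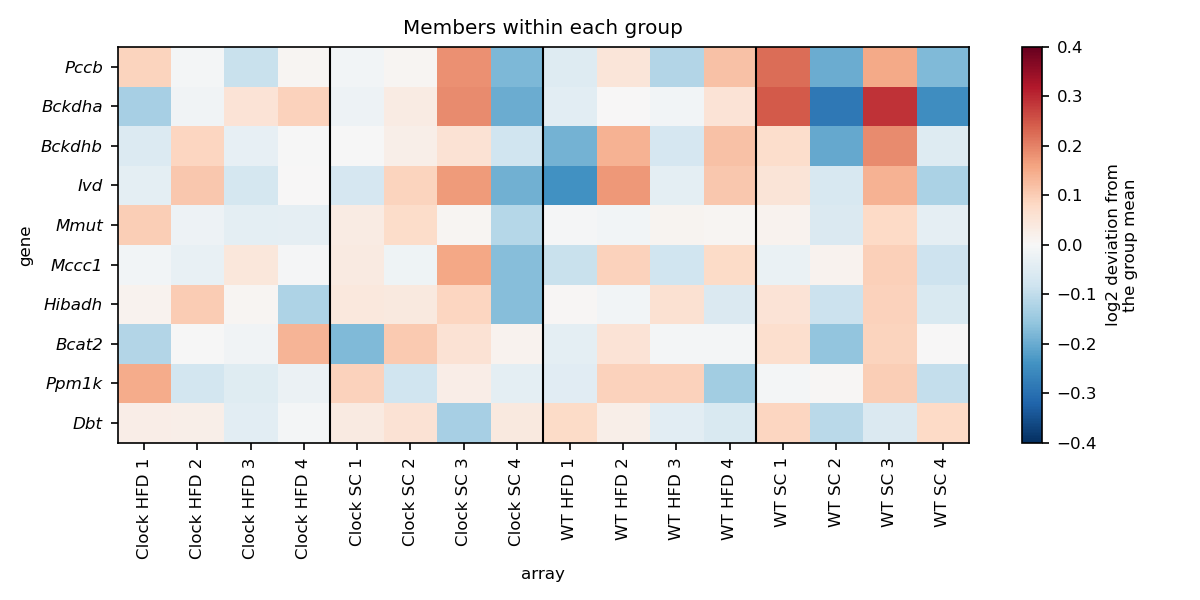
Each cell shows the log2 deviation of 1 heart (column) from the mean of its group for 1 gene (row), with rows ordered by their correlation with the leading pattern of all genes and black lines between groups. Clock SC 4, WT SC 2 and WT SC 4 are blue in most of the upper rows. Dbt at the bottom is blue in WT SC 2 but not in Clock SC 4 or WT SC 4.

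Among genes outside the pathway, those most like the mean of the 10 genes over the 16 arrays were Hdac6 (r = 0.93), Inppl1 (0.91), Marchf6 (0.89), Mpdz (0.87) and Sipa1l2 (0.86). With group means subtracted they were Tns1 (0.96), Marchf6 (0.95), Hdac6 (0.94), Inppl1 (0.94) and Fgfr1 (0.94). The points of each correlation are the same 16 arrays, and the lowest of them are the 3 hearts named above.

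A further 23 genes of branched-chain amino acid transport and breakdown were measured. Between Clock and WT hearts, 0 of 23 passed on HFD in the limma fit (15 above 0 and 8 below, 6 with an unadjusted p under 0.05), against 1.9% of all genes. On SC, 0 of 23 passed (2 with an unadjusted p under 0.05 in the limma fit), against 0.491% of all genes. Of all 22180 genes, 2989 on HFD and 2167 on SC had an unadjusted p under 0.05 in that fit. The kinase gene Bckdk, whose product switches the dehydrogenase complex off, had log2 values of 0.07, 0.06, 0.14 and 0.21 in Clock HFD hearts, against -0.15, -0.03, -0.22 and 0.03 in WT HFD hearts. The Bckdk ranges did not overlap, and the difference of 0.21 ± 0.09 (SE) did not pass (limma adjusted p = 0.261). Dld, which encodes the dihydrolipoyl dehydrogenase of the complex, differed by 0.03 ± 0.04 on HFD (95% interval -0.05 to 0.11).

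The cytosolic aminotransferase gene Bcat1 differed by -0.14 ± 0.06 (SE) between Clock and WT hearts on HFD (limma adjusted p = 0.246), opposite in sign to the mitochondrial Bcat2. The mitochondrial carrier gene Slc25a44 differed by 0.08 ± 0.06 (adjusted p = 0.585). Klf15, a transcription factor known to raise this pathway in mouse heart, differed by -0.05 ± 0.07 on HFD (adjusted p = 0.84), and 0 of 2 regulator genes (Klf15 and Ppargc1a) passed in any comparison, with Klf15 alone at an unadjusted p under 0.05, for diet. Between HFD and SC, Klf15 differed by 0.17 ± 0.05 averaged over genotypes (unadjusted p = 0.00391, limma adjusted p = 0.113).

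Averaged over diets, Auh, the methylglutaconyl-CoA hydratase of leucine breakdown, was 0.16 ± 0.04 (SE) higher in Clock hearts (limma adjusted p = 0.0352) and was the 1 gene of 23 to pass, against 2.44% of all genes higher. Its values were 0.13, 0.15, 0.08 and 0.02 in Clock HFD hearts, against -0.18, -0.12, -0.12 and 0.03 in WT HFD hearts, with WT HFD replicate 4 overlapping. Auh passed in 9 of 24 other settings (adjusted p 0.0149 to 0.182), and its call was lost without WT SC replicates 2 and 4 (0.11). Single arrays whose removal ended it were Clock HFD 1, 2 and 3, Clock SC 1, 2 and 3, WT HFD 1, 2 and 3 and WT SC 2 and 4.

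On diet, Mmadhc, which encodes a cobalamin-handling protein needed by the mutase, was 0.27 ± 0.05 (SE) higher on HFD in WT hearts (limma adjusted p = 0.0482), the 1 gene of 23 to pass, against 0.185% of all genes higher. Its values were 0.10, 0.06, 0.0036 and 0.14 in WT HFD hearts, against -0.15, -0.29, -0.16 and -0.15 in WT SC hearts, without overlap. This call passed in 4 of 25 other settings (adjusted p 0.0375 to 0.232) and was lost when any 1 of the 8 WT arrays was left out. In Clock hearts Mmadhc differed by 0.08 ± 0.05 between HFD and SC, and 0 of the 23 genes passed there. Unadjusted p in the limma fit was under 0.05 for 4 of the 23 there, against 1867 of 22180 genes.

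Averaged over genotypes, 2 of 23 passed and both were higher on HFD, against 0.812% of all genes higher. Acat1, the thiolase that ends isoleucine breakdown, was 0.17 ± 0.03 (SE) higher (limma adjusted p = 0.021) and did not overlap between diets in either genotype. Its values were 0.01, 0.03, 0.10 and 0.10 in Clock HFD hearts and 0.02, 0.17, 0.15 and 0.07 in WT HFD hearts. Against these stood -0.22, -0.10, -0.03 and -0.10 in Clock SC hearts and -0.01, -0.11, -0.03 and -0.13 in WT SC hearts. Acat1 passed in 22 of 24 other settings and was 0.15 with an adjusted p of 0.108 without WT SC replicates 2 and 4. Mmadhc was 0.17 ± 0.04 higher (adjusted p = 0.0319) and passed in 12 of 24. That call was lost without any of Clock HFD 2 and 4, Clock SC 1, 3 and 4, WT HFD 1, 2 and 4 and WT SC 2.

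The pyruvate and oxoglutarate dehydrogenases are sister complexes built on the same plan as the branched-chain complex. All 6 of their measured genes (Pdha1, Pdhb, Dlat, Pdhx, Ogdh and Dlst) lay above 0 for Clock minus WT on HFD and on SC, and 2 passed averaged over diets, against 2.44% of all genes higher. Pdhx, a structural subunit of the pyruvate complex, was 0.26 ± 0.06 (SE) higher (limma adjusted p = 0.0266), and Ogdh, the oxoglutarate decarboxylase, was 0.17 ± 0.04 higher (limma adjusted p = 0.0344). Without WT SC replicates 2 and 4 both calls were lost, at 0.16 for Pdhx (adjusted p = 0.0924) and 0.12 for Ogdh (adjusted p = 0.167). Left out singly, Clock HFD 2, 3 or 4, Clock SC 1 or 3, WT HFD 3 or WT SC 2 ended the Pdhx call, and Clock HFD 1, 2 or 3, Clock SC 1 or 3, WT HFD 1 or 2 or WT SC 2 or 4 the Ogdh call. The mean of the 6 genes was 0.08 to 0.13 in Clock HFD hearts, against -0.15 to 0.05 in WT HFD hearts. Dbt, which encodes the core of the branched-chain complex, had the opposite sign to Dlat and Dlst, which encode the cores of the sister complexes. The difference between these genes was not tested. On HFD the Dlst means were 0.02 in Clock and -0.02 in WT hearts. On SC the signs of Dlat and Dlst rest on WT SC replicates 2 and 4, at -0.20 and -0.13 for Dlat and -0.12 and -0.04 for Dlst. WT SC replicates 1 and 3 lay at 0.06 and -0.03 for Dlat and -0.01 and 0.06 for Dlst, against Clock SC means of -0.01 for each gene.

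**Figure D5:**
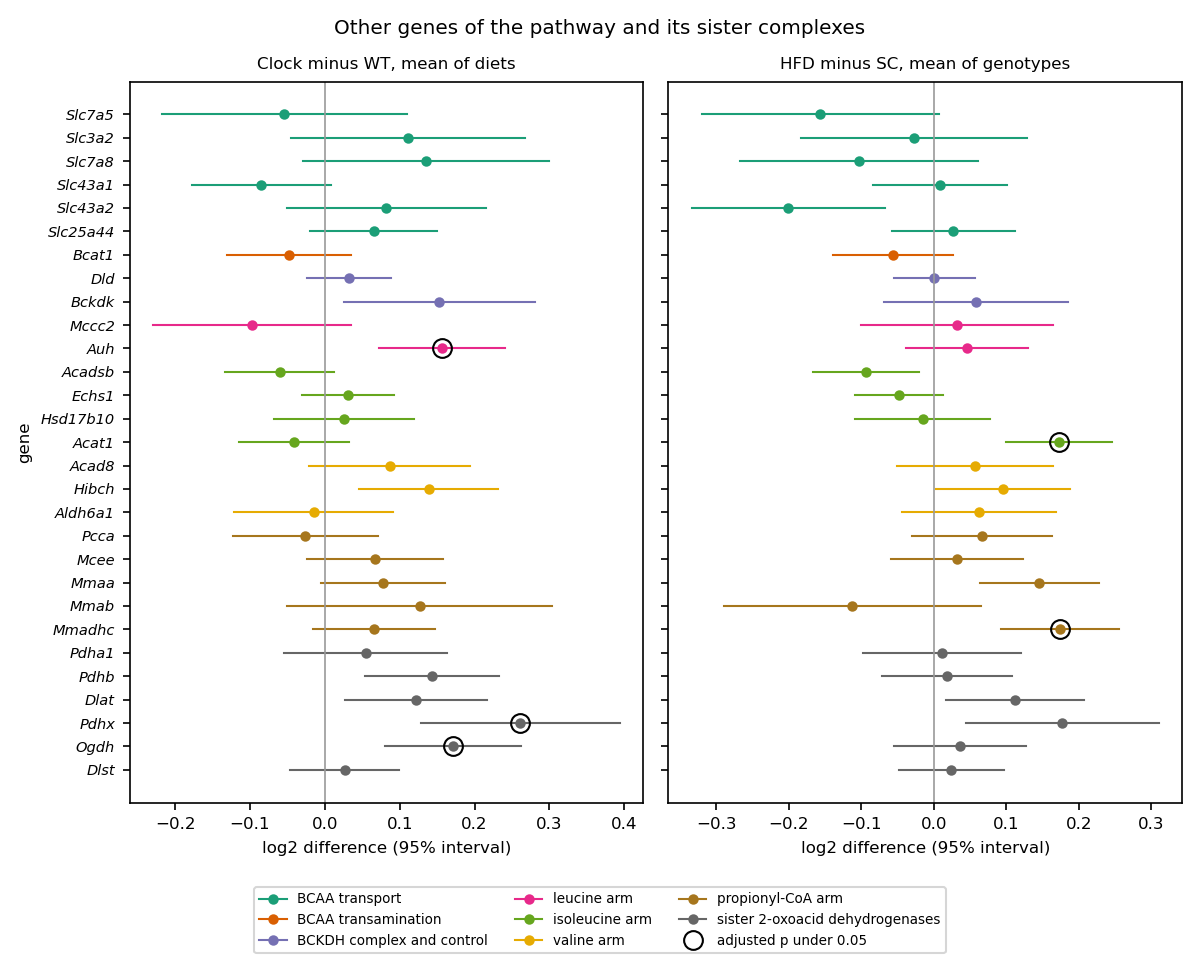
Points show log2 differences with 95% intervals of the limma fit for the other genes of the pathway and the sister complexes, Clock minus WT averaged over diets on the left and HFD minus SC averaged over genotypes on the right (n = 8 against 8). Circled genes passed an adjusted p under 0.05: Auh, Pdhx and Ogdh on the left, Acat1 and Mmadhc on the right.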

How the data were processed

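RNA from the myocardium of 16 mice was read on 1 array per mouse. The authors' deposited values, taken as log2, cover 34351 probe sets, each centred on its own median over the 16 arrays (largest absolute median 5e-07). The log base and sign, software, background correction and normalization are not given in the sources used. Probe sets with exactly 1 gene symbol (23521) were averaged per gene, and those with several (1814) or none (9016) were left out. Each of the 10 genes has 1 probe set. Replicates are separate mice per the labels.

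Group means were fitted with limma 3.58.1 (R 4.3.3; 1 mean per group, lmFit and eBayes, two-sided), with 12 residual and 4.16 prior degrees of freedom. Benjamini-Hochberg adjustment ran over all 22180 genes in each of 7 comparisons. The fit was tested on simulated data. The 10 genes and the gene lists were chosen with earlier results of these data known. Named beside them were list genes past the threshold (up to 4 per list and comparison), Bckdk, Bcat1, Slc25a44, Klf15 and Dbp, and the 5 genes most like their mean by each of 2 measures. Same-numbered replicates did not deviate together (r -0.149 to 0.163), so the numbers were not taken to pair mice. Some genes of the lists were not analysed here. Figures and promoter searches used Python 3.11.15, numpy 2.4.6, pandas 2.3.3 and matplotlib 3.10.9.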

Additional observations from a re-analysis of the deposited data

Results flagged for a closer look

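Within groups of 4 hearts, 132 pairs of a gene and a group were screened for a single heart set apart from the other 3 by a gap of more than 0.829 of the group's range. Chance marks about 1 in 20 such groups, and 9 were marked here.

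Among the 10 branched-chain amino acid genes, Dbt in Clock SC replicate 3 lay at -0.17, with the nearest heart at -0.002. Mmut in Clock HFD replicate 1 lay at -0.03, with the nearest heart at -0.143, so the other 3 Clock HFD hearts were lower than it. Of the genes around the pathway, Slc25a44 lay at -0.06 in Clock HFD replicate 1 and Pdhx at 0.14 in the same heart. Mmadhc lay at -0.29 in WT SC replicate 2, and Gpt2, a mitochondrial alanine aminotransferase gene, at -0.38 in WT HFD replicate 1. Dbp lay at 1.86 in WT HFD replicate 1, still above every Clock heart. The endothelial genes Pecam1 and Emcn lay at 0.19 in Clock HFD replicate 4 and at 0.16 in Clock SC replicate 1.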

How the results depend on the processing

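Over the 10 genes and 7 comparisons, 7 values under other settings lost the call and 1 gained it. Another 16, uncalled throughout, changed sign with a shift of at least 1 SE of the main difference. All 16 were with WT SC replicates 2 and 4, or these and Clock SC replicate 4, left out. The other 1696 kept their side of the threshold. Large shifts without a change of sign are among the 1696, such as Bckdha for diet in WT hearts (0.31, and 0.04 without WT SC replicates 2 and 4). No called difference changed sign. The 7 losses were Mmut on HFD and the gain was Bckdha between diets, both given above. That left-out pair and trio were chosen after seeing the data.

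Genes called between Clock and WT on SC numbered 59 with trend and robust estimation, 38 in a fit of the 8 arrays compared, 49 without WT SC replicates 2 and 4 and 57 without Clock SC replicate 4 too, against 109. The average over diets gave 507 without WT SC replicates 2 and 4, against 861. HFD against SC in Clock gave 8 with trend and robust estimation, 53 with array weights, 43 after a repeated quantile normalization and 7 in a fit of 8 arrays, against 20. In WT it gave 40 with trend and robust estimation, 15 in a fit of 8 arrays, 11 without WT SC replicates 2 and 4 and 17 without Clock SC replicate 4 too, against 78. Averaged over genotypes these 2 exclusions gave 141 and 150, against 341. The interaction gave 0 throughout. The cause of these shifts was not tested, though fewer arrays were fitted in some.

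Leaving out single arrays gave 241 to 490 genes on HFD, 49 to 144 on SC and 648 to 1003 averaged over diets. For diet it gave 6 to 27 in Clock, 28 to 90 in WT and 218 to 329 averaged over genotypes. Of the 10 genes it left 1 to 2 lower on HFD, 2 lower averaged over diets, and 0 to 1 higher on diet averaged over genotypes.

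A fit with the replicate block called 12 genes for diet in Clock and 41 in WT, and changed no call among the 10 genes. It ended those of Auh (adjusted p = 0.0681), Mmadhc (0.0837 in WT, 0.0605 averaged over genotypes) and Suclg1 (0.0651), and among cell markers those of Tek averaged over diets (0.0527), Cldn5 for diet in WT (0.059) and Ryr2 for diet averaged over genotypes (0.0661). The same numbers showed no pairing, with 3 of 24 pairs at r over 0.1.

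The number of arrays, 4 a group, limits the precision. Values are centred, so low signal, background and probe saturation cannot be checked, and each of the 10 genes rests on 1 probe set. With the largest-variance probe set taken for genes that have several, Suclg2 lost its call for Clock minus WT averaged over diets (0.15, adjusted p = 0.0963).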

Other observations

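Of 12 amino acid enzymes measured outside the branched-chain pathway, 2 passed between Clock and WT hearts averaged over diets, 1 lower (Cth) and 1 higher (Gpt2), against 3.88% of all genes. Cth, the cystathionine gamma-lyase that makes cysteine, had log2 values of -0.43, -0.09, -0.14 and -0.24 in Clock HFD hearts, against -0.01, 0.32, 0.10 and 0.06 in WT HFD hearts, without overlap. Cth fell by 0.34 ± 0.08 (SE) on HFD (limma adjusted p = 0.0429) and by 0.30 ± 0.06 averaged over diets (adjusted p = 0.00692), a call kept under all 24 other settings. The HFD call was lost when any of Clock HFD replicates 1, 3 or 4, WT HFD replicates 2, 3 or 4, Clock SC replicates 1 or 2, or WT SC replicates 1 or 4 was left out. Gpt2 was 0.29 ± 0.06 higher averaged over diets (adjusted p = 0.00997), and 0.24 with an adjusted p of 0.0691 without WT SC replicates 2 and 4.

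Downstream of methylmalonyl-CoA mutase, Suclg1 and Suclg2 encode subunits of the succinyl-CoA ligases of the citric acid cycle. Suclg2 was 0.18 ± 0.04 (SE) higher in Clock hearts averaged over diets (limma adjusted p = 0.0155) and 0.19 ± 0.04 higher on HFD averaged over genotypes (adjusted p = 0.0234). Suclg1 was 0.17 ± 0.04 higher on HFD averaged over genotypes (adjusted p = 0.0459) and passed in 6 of 24 other settings, being kept with a single array left out only without WT HFD 3 or WT SC 1. The diet call of Suclg2 was lost without Clock HFD 3 (adjusted p = 0.0503). Of 11 citric acid cycle genes measured, 1 passed for genotype and 2 for diet in these averages, against 3.88% and 1.54% of all genes. Without WT SC replicates 2 and 4, adjusted p was 0.091 for the genotype difference of Suclg2, 0.111 for its diet difference and 0.2 for Suclg1.

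Other cell markers that passed averaged over diets were all higher in Clock hearts: Ryr2 (0.17 ± 0.03) of 8 cardiomyocyte genes, Pecam1 (0.16 ± 0.04), Tek (0.24 ± 0.06) and Cldn5 (0.74 ± 0.12) of 6 endothelial genes, and Col1a1 (0.30 ± 0.07) and Lum (0.27 ± 0.07) of 6 fibroblast genes. Of all genes, 2.44% were higher. Of 24 other settings, Cldn5 passed in 24, Ryr2 and Col1a1 in 22, Pecam1 and Lum in 16 and Tek in 12. Without WT SC replicates 2 and 4 all but Cldn5 lost the call, with adjusted p of 0.0526 for Ryr2, 0.0596 for Lum, 0.0613 for Pecam1, 0.0838 for Tek and 0.103 for Col1a1. On HFD averaged over genotypes, Ryr2 was higher (0.15 ± 0.03) and the endothelial genes Kdr (-0.24 ± 0.05) and Emcn (-0.21 ± 0.05) were lower, among 1.54% of all genes that passed. These calls passed in 10, 18 and 11 of 24 other settings, and without WT SC replicates 2 and 4 adjusted p was 0.165 for Ryr2, 0.104 for Kdr and 0.088 for Emcn. In WT hearts Cldn5 was lower on HFD (-0.81 ± 0.17), a call that passed in 6 of 25 other settings. It was lost when any 1 of the 8 WT arrays was left out (adjusted p 0.0742 to 0.111), with array weights (0.0681) and with the replicate block (0.059). None of the 5 adipocyte, 6 leukocyte and 6 smooth muscle and pericyte genes passed in the limma comparisons run. Averaged over diets, 0, 1 and 4 of them had an unadjusted p under 0.05 in the limma fit, against 3656 of 22180 genes. Of 12 immediate early genes, Egr2 passed, at 0.47 ± 0.09 for Clock minus WT on HFD and -0.49 ± 0.09 for HFD minus SC in WT hearts. Of all genes, 1.9% and 0.352% passed in these comparisons. The first passed in 23 of 25 other settings and the second in 13 of 25, with an adjusted p of 0.203 without WT SC replicates 2 and 4. Egr2 was also called higher in Clock hearts averaged over diets and lower on HFD averaged over genotypes, against 2.44% of all genes higher and 0.726% lower. Those averaged calls passed in 23 and 22 of 24 other settings.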
